A study of Mus musculus with 12 samples.

Results

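The organic anion and cation transporters were examined in RNA sequencing of mouse liver. They were taken as every protein-coding gene whose name in the deposited tables is Slco, Slc22a or Abcc followed by its number, which selected 49 of 54532 listed genes, 14 of them Slco, 25 Slc22a and 10 Abcc. The choice used names only and no measured value. A further 2 genes carried such names without being protein coding, the pseudogenes Slco6b1 and Slc22a13b-ps, and were left aside.

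Slco genes encode the organic anion transporting polypeptides (OATPs), which take bile acids, bilirubin, steroid conjugates, thyroid hormones, prostaglandins and many drugs into cells. Slc22a genes encode the organic cation transporters (OCTs), the carnitine and cation transporters (OCTNs) and the organic anion transporters (OATs). Abcc genes encode ATP-driven pumps that move glutathione, glucuronide and sulfate conjugates out of cells, with Abcc2 on the canalicular membrane that faces bile and Abcc3 on the basolateral membrane that faces blood, and they also include the sulfonylurea receptors, which are subunits of potassium channels.

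The livers came from 4 groups of 3 male PPARγflox/flox mice, 12 libraries in all. Mice were injected at 8 weeks of age with an AAV8 vector whose thyroxine-binding globulin (TBG) promoter is active in hepatocytes, and the vector carried Cre recombinase for the hepatocyte-specific PPARγ knockout (PPARγ-KO, labelled KO) or eGFP for the littermate controls (wild-type, labelled WT). All 4 groups carried the floxed alleles and an AAV8 vector, and all ate a fast-food diet (FFD) rich in saturated fat, cholesterol and sucrose, with fructose and glucose in the drinking water, for 2 months or 5 months. Different mice were used at each time, each time has a different age as well, and no chow-fed liver is analysed here.

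Libraries held 16367775 to 27452284 counts, of which the 49 transporters took 0.340% to 0.541%. Pparg, the targeted gene, was not reduced where the label is PPARγ-KO: at 2 months it had 37.6 to 41.4 CPM (counts of a gene scaled to a common library size) in wild-type and 50.4 to 66.5 in PPARγ-KO, and at 5 months 36.9 to 41.4 and 75.02 to 92.9. The tables count all exons of a gene together and so cannot show the loss of floxed exons, and every direction given here follows the labels. Wild-type replicate 1 at 2 months stood apart from its group, with chi-square per gene of 28.7 and 25.0 against the other replicates, which differed from each other by 9.41. The summed level of 8 hepatocyte markers ran from 53560 to 64630 CPM in wild-type and from 70750 to 83850 in PPARγ-KO at 2 months, and from 52520 to 57730 and from 72190 to 83670 at 5 months. Most of that sum was Alb, and 0 of the 8 markers were called at 2 months and 2, Alb and Tat, at 5 months. The 7 macrophage markers summed to 397 to 521 and 436 to 488 CPM at 2 months, and to 1068 to 1178 and 511 to 632 at 5 months. The part of these levels in the results was not tested, and in whole liver fewer cells of a type and less RNA per cell cannot be told apart.

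Among the transporters described here, Slco1b2 had the highest level for its length in each of the 4 groups, at 252.6 ± 33.0 CPM per kb (SD, n = 3) in wild-type liver at 2 months. Next came Abcc2 at 152 ± 9.53, Abcc3 at 81.95 ± 4.07 and Slc22a18 at 64.05 ± 2.19 CPM per kb. Abcc6, Slc22a30, Slco2b1 and Slco1a1 followed at 40.5 ± 5.32, 34.3 ± 4.95, 31.6 ± 3.07 and 29.65 ± 21.2, levels that overlap between neighbours. Over all 49 transporters Slco1a1 went from rank 9 in wild-type to rank 4 in PPARγ-KO at 2 months, and from rank 15 to rank 9 at 5 months.

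**Figure D1:**
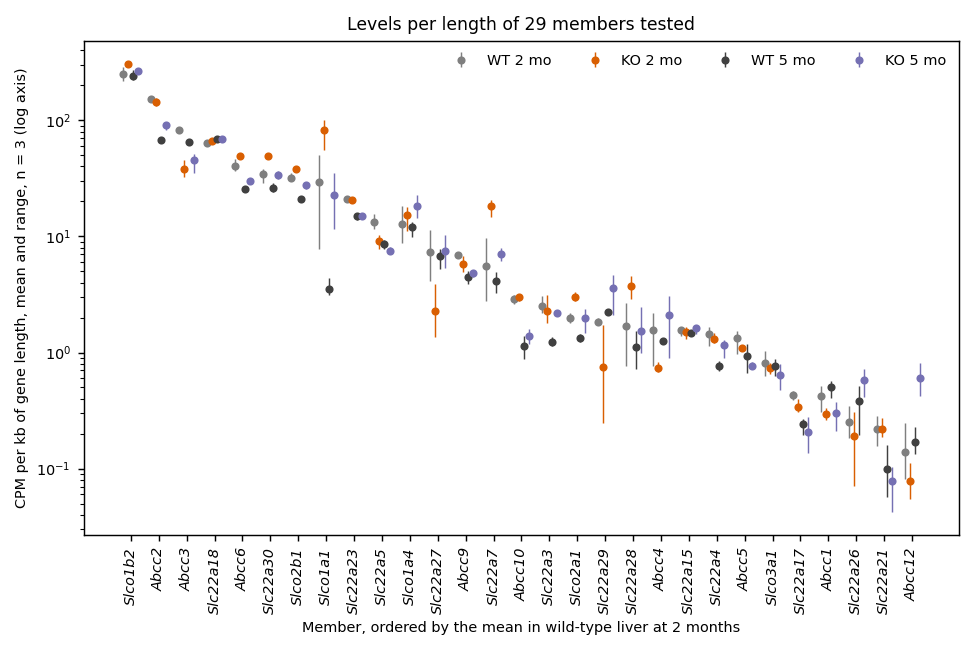
Level per length of 29 transporters with enough counts to test, as CPM per kb of gene length on a log axis, for wild-type (WT) and PPARγ-KO (KO) at 2 and 5 months. Points are means of 3 libraries and bars run from the lowest to the highest library; Slco1b2 stays at the top in each group, and Slco1a1 falls to 3.54 CPM per kb in wild-type at 5 months.

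PPARγ-KO was set against wild-type of the same feeding time with edgeR, adjusting p over all genes tested and calling genes at an adjusted p below 0.05. At 2 months 30 transporters could be tested and 3 were called: the basolateral pump Abcc3 was lower, and the prostaglandin transporter Slco2a1 and the OAT Slc22a30 were higher. Over all 14573 genes tested, 1.78% were called higher and 1.78% lower. The transporters' median log2 fold change was -0.06, against -0.00 for all genes, and 13 of 30 were above 0. In 12 of 30 (40.0%) the 3 PPARγ-KO libraries did not overlap the 3 wild-type libraries, 9 lying above and 3 below, against 24.1% of all genes. Wild-type replicate 1 weighed on this comparison: without it 11 were called, 7 higher and 4 lower, and without wild-type replicate 2 or 3 only Abcc3 was. With the replicate number as a block, since same-numbered libraries at 2 months deviated together, 6 were called, 3 higher and 3 lower.

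At 5 months 29 were tested and 11 were called, 9 higher and 2 lower. Those higher were Slco1a1, Abcc12, Slc22a3, Slc22a7, Slco2a1, Abcc2, Slco2b1, Slc22a30 and Abcc6, and those lower were Abcc1 and Abcc3. Of 14138 genes tested, 8.90% were called higher and 9.51% lower. The median log2 fold change of the transporters was 0.28, against -0.01 for all genes, with 22 of 29 above 0. Groups did not overlap for 13 of them (44.8%), 11 above and 2 below, against 34.8% of all genes. The count fell to 6 without wild-type replicate 2 and to 7 without wild-type replicate 3. The 3 transporters called at 2 months were called again at 5 months in the same direction, in comparisons that share no library. Of all genes called higher at 2 months 54.4% were called higher at 5 months, and of those called lower 53.3% were called lower.

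**Figure D2:**
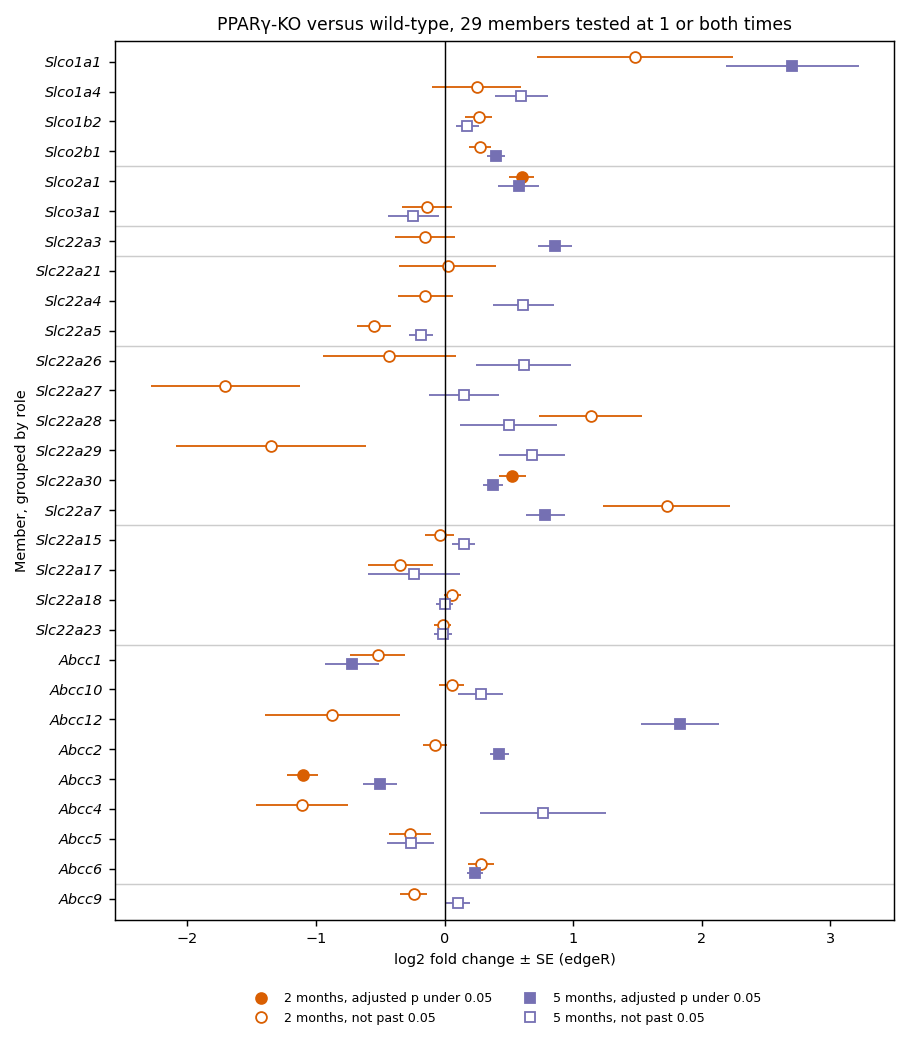
Log2 fold change of PPARγ-KO over wild-type at 2 months (circles) and 5 months (squares) for 29 transporters grouped by role. Bars are standard errors derived from the edgeR test and filled symbols have an adjusted p below 0.05. At 2 months 3 are filled and at 5 months 11, and Abcc3 lies below 0 at both times.

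Over time, 14 transporters were lower after 5 months than after 2 months in wild-type and none was higher. Of 14491 genes tested, 23.8% were called higher and 22.7% lower, so the transporters' share called lower, 46.7%, stood beside a share of 0 called higher. Their median log2 fold change was -0.45, against -0.01 for all genes, and 13 of 30 lay wholly below and 2 wholly above, 50.0% in all against 56.7% of all genes. In PPARγ-KO 14 were lower and 3 were higher, against 22.2% and 22.7% of 14478 genes, with a median of -0.24 against -0.01, and 63.3% did not overlap, 14 below and 5 above, against 55.6% of all genes. Lower in each genotype were 9 genes, Slco1a1, Slco2a1, Slco2b1, Slc22a5, Slc22a23, Slc22a30, Abcc2, Abcc6 and Abcc10, which is 64.3% of each list of 14, whereas for all genes 68.9% of those lower in wild-type and 70.8% of those lower in PPARγ-KO were shared. Feeding time, age and any batch of the libraries cannot be told apart here. The difference between the knockout effects at 5 and 2 months was past the threshold for 2 transporters, Abcc12 and Abcc2, both higher, against 0.661% of 15127 genes higher and 0.912% lower, with a median of 0.15 against -0.00. Leaving out single libraries gave 0 to 4 such calls.

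**Figure D3:**
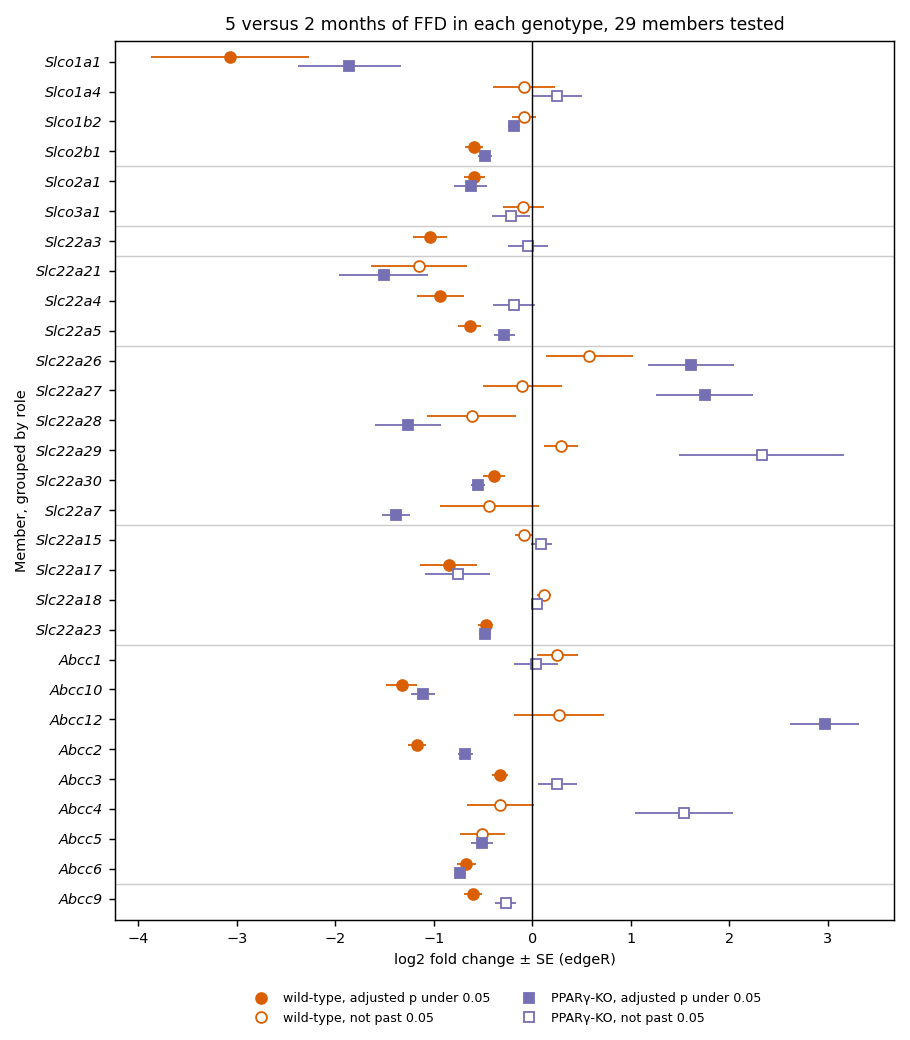
Log2 fold change of 5 over 2 months of FFD in wild-type (circles) and PPARγ-KO (squares) for 29 of the transporters tested, grouped by role. Bars are standard errors derived from the edgeR test and filled symbols have an adjusted p below 0.05. All 14 filled wild-type symbols lie below 0, and Abcc12, Slc22a26 and Slc22a27 are filled above 0 in PPARγ-KO.

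Among the OATPs that take substrates from blood into hepatocytes, Slco1a1 had the widest range. Its gene lies at chr6:141907282-141946962 on the minus strand of mm10, and it is known as a transporter with higher expression in male than in female mouse liver. At 2 months it was at 264, 40.9 and 165 CPM in wild-type replicates 1, 2 and 3, and at 535.5, 289.8 and 484.5 in PPARγ-KO. At 5 months it was at 23.1, 16.5 and 16.5 CPM in wild-type and at 187, 61.15 and 114 in PPARγ-KO. Every PPARγ-KO library was above every wild-type library at the same time, and replicate 2 was the lowest of its group or tied for the lowest in all 4 groups. The log2 fold change was 1.48 ± 0.759 (SE) at 2 months, which did not pass (edgeR adjusted p = 0.404), and 2.70 ± 0.518 at 5 months, which did (edgeR adjusted p = 0.0354). The call at 5 months was lost without any of the 3 wild-type replicates or PPARγ-KO replicate 3, with an adjusted p of up to 0.142. Slco1a1 was lower at 5 than at 2 months in wild-type (log2 fold change -3.07 ± 0.804, edgeR adjusted p = 0.0386) and in PPARγ-KO (-1.86 ± 0.525, edgeR adjusted p = 0.0491). These calls were also lost without single libraries, in wild-type without replicate 1 or 3 at 2 months or any replicate at 5 months, and in PPARγ-KO without any replicate at 2 months or replicate 2 or 3 at 5 months, with an adjusted p of up to 0.128 and 0.143.

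The promoter of Slco1a1 is printed because the gene had the largest knockout difference at 5 months, and that of Abcc2 because its knockout effect differed between the times. The sequences are RefSeq's for GRCm38.p6, the assembly that mm10 names, from 250 bases before the start site to 50 bases from it on, at chr6:141946913-141947212, minus strand, and at chr19:43782058-43782357, plus strand. Capitals mark AGGTCA, the core site of many nuclear receptors, and a direct repeat of it with 1 base between, allowing 2 mismatches in the repeat, on either strand.
Slco1a1: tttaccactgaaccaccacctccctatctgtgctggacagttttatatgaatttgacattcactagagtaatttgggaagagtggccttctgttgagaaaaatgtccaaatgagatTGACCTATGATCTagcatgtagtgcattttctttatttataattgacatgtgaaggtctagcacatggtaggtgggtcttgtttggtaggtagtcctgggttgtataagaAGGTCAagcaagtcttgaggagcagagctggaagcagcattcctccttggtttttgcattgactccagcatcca
Abcc2: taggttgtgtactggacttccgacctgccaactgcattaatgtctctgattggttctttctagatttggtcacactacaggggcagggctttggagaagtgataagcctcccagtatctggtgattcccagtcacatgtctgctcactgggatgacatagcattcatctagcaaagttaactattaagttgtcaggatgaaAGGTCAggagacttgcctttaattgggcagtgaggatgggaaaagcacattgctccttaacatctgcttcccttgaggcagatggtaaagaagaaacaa
In Slco1a1 a repeat on the minus strand lay from 134 to 122 bases before the start and overlapped an AGGTCA match, and another AGGTCA lay 24 to 19 bases before it. In Abcc2 AGGTCA lay 49 to 44 bases before the start. Promoters of 300 bases were matched by gene name for 40 of the 49 transporters, and AGGTCA was in 6 of them (15%), against 16.3% of 32851 promoters. Some start sites lay far from the deposited 5' end of the gene, at 175158 bases for Slc22a14, 1 of those with AGGTCA. The distance was 22372 bases for Slco1a6, 19775 for Slco2a1 and 14096 for Abcc12. The repeat was in 2 of 40 (5.00%), Slco1a1 and Slc22a20, against 3.86%. Of other letters searched on both strands, GTTAAT, a core of HNF1 sites, was in 4 (10.0%) against 7.10%, among them Slco1b2, TGACNNNGC, the core to which NRF2 binds, in 7 (17.5%) against 12.4%, and CAAAGTCCA, an HNF4 site, in none against 0.475%. The members' shares are a description, since several of these promoters are related in sequence.

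Slco1b2, the main hepatocyte carrier for bilirubin, bile acids and statins, was at 1409, 1084 and 1243 CPM in wild-type and 1529, 1525 and 1438 in PPARγ-KO at 2 months. At 5 months the values were 1344, 1092 and 1093 and then 1360, 1316 and 1284. The groups were apart at 2 months and overlapped at 5 months, and neither difference passed, with log2 fold changes of 0.27 ± 0.107 and 0.18 ± 0.0877 (edgeR adjusted p = 0.213 and 0.193). The difference was called without wild-type replicate 1 of either time. Slco1b2 was slightly lower at 5 than at 2 months in PPARγ-KO (-0.18 ± 0.061, edgeR adjusted p = 0.0288), a call lost without replicate 1 or 2 at 2 months or replicate 2 or 3 at 5 months, with an adjusted p of up to 0.157.

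Slco2b1, an OATP of wide substrate range found in liver and gut, was at 209, 177 and 178 CPM in wild-type and at 227, 214 and 242 in PPARγ-KO at 2 months. At 5 months it was at 134, 120.4 and 121 and at 152, 175 and 164. PPARγ-KO was above wild-type at each time without overlap, and the difference passed at 5 months (log2 fold change 0.40 ± 0.0714, edgeR adjusted p = 0.00185) under every alternative tried, but not at 2 months (0.28 ± 0.0883, edgeR adjusted p = 0.125), where it passed without wild-type replicate 1. It was lower at 5 than at 2 months in each genotype, by log2 fold changes of -0.59 ± 0.0897 in wild-type and -0.48 ± 0.0697 in PPARγ-KO (edgeR adjusted p = 0.000381 and 0.000238). Of the 5958 exon bases of Slco2b1, 471 (7.91%) also lie in exons of Gm15635 on the opposite strand. Gm15635 was scarce, at 0.355 to 3.94 CPM, and was also lower over time (-2.46 ± 0.332 in wild-type and -1.53 ± 0.270 in PPARγ-KO, edgeR adjusted p = 0.000183 and 0.000873). Its part in the values of Slco2b1 was not tested. Slco1a4, a further uptake carrier that also serves the blood-brain barrier, ran from 56.25 to 145 CPM and passed in none of the 5 comparisons. At 5 months its PPARγ-KO libraries all lay above wild-type (log2 fold change 0.60 ± 0.204, edgeR adjusted p = 0.112), and without PPARγ-KO replicate 1 the difference was called.

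Slco2a1 takes up prostaglandins for breakdown and is expressed in endothelium. It was at 29.4, 27.1 and 24.55 CPM in wild-type and 37.8, 40.2 and 44.7 in PPARγ-KO at 2 months, and at 16.8, 17.5 and 19.6 and then 27.6, 20.1 and 32.4 at 5 months. PPARγ-KO was higher without overlap at each time, by log2 fold changes of 0.60 ± 0.0964 and 0.58 ± 0.160 (edgeR adjusted p = 0.013 and 0.0373). The call at 2 months was lost without wild-type replicate 2 or 3, with an adjusted p of up to 0.0567, and that at 5 months without any wild-type replicate or PPARγ-KO replicate 1 or 3, with an adjusted p of up to 0.153. Slco2a1 was lower at 5 than at 2 months in wild-type (-0.59 ± 0.105, edgeR adjusted p = 0.00104) and in PPARγ-KO (-0.62 ± 0.166, edgeR adjusted p = 0.0199), the latter not without PPARγ-KO replicate 2 or 3 at 2 months or 1 at 5 months, with an adjusted p of up to 0.0648. The 7 endothelial markers summed to 336 to 405 and 367.5 to 389 CPM at 2 months and to 283 to 296 and 245 to 263 at 5 months. At 5 months 4 of the 7 were called lower in PPARγ-KO, and over time 4 were called lower and 1 higher in wild-type and 5 lower and 1 higher in PPARγ-KO. Their part in the values of Slco2a1 was not tested. Slco3a1, a broadly expressed OATP, ran from 4.04 to 8.67 CPM and passed in no comparison.

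Slc22a3, a high-capacity carrier of cations and monoamines, lies at chr17:12418960-12507704. It was at 10.3, 13.9 and 9.79 CPM in wild-type and 8.69, 14.1 and 8.04 in PPARγ-KO at 2 months, and at 6.16, 5.245 and 5.17 and then 10.4, 9.64 and 9.65 at 5 months. At 5 months wild-type alone was low, and every PPARγ-KO library was above it (log2 fold change 0.86 ± 0.132, edgeR adjusted p = 0.000664), which held under every alternative tried. Wild-type was lower at 5 than at 2 months (-1.04 ± 0.172, edgeR adjusted p = 0.000667), and this comparison uses the same 5-month wild-type libraries. PPARγ-KO did not pass over time (-0.04 ± 0.202, edgeR adjusted p = 0.878), and the difference between the knockout effects did not pass either (1.00 ± 0.278, edgeR adjusted p = 0.0909), though it was called by DESeq2, without the filter and without PPARγ-KO replicate 2 at 2 months. Of the 4513 exon bases of Slc22a3, 420 (9.31%) also lie in exons of Plg on the opposite strand, an abundant plasma protein gene at 982 to 1584 CPM, and whether counting used the strand is not given in the sources used here. Plg did not pass between genotypes at 5 months (log2 fold change 0.13 ± 0.0737, edgeR adjusted p = 0.274).

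Of the 3 carnitine carriers tested, 2 were called lower over time in each genotype. They were Slc22a5 and Slc22a4 in wild-type and Slc22a5 and Slc22a21 in PPARγ-KO. Over all genes tested 22.7% were called lower in wild-type and 22.2% in PPARγ-KO, and 3 genes are too few to set against these shares. Slc22a5 (OCTN2), the high-affinity carnitine transporter, was at 38.4, 48.3 and 35.45 CPM in wild-type and 24.0, 28.1 and 31.3 in PPARγ-KO at 2 months, and at 28.4, 23.8 and 26.4 and then 22.2, 21.6 and 25.1 at 5 months. Wild-type at 2 months lay above all other libraries. The knockout difference at 2 months was -0.55 ± 0.134 on the log2 scale, with an edgeR adjusted p of 0.06 without the replicate block and 0.0336 with it, and at 5 months it did not pass (-0.18 ± 0.0907, edgeR adjusted p = 0.192). The fall over time was -0.64 ± 0.119 in wild-type (edgeR adjusted p = 0.00158) and -0.28 ± 0.105 in PPARγ-KO (edgeR adjusted p = 0.0449), where it was lost without replicate 2 or 3 at 2 months or 1 or 2 at 5 months, with an adjusted p of up to 0.175.

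Slc22a4 (OCTN1), the ergothioneine transporter, was at 4.20, 4.01 and 2.89 CPM in wild-type and 3.05, 3.19 and 3.72 in PPARγ-KO at 2 months. At 5 months it was at 1.78, 2.16 and 1.88 and at 2.31, 3.28 and 3.28. It was lower at 5 months in wild-type (-0.93 ± 0.239, edgeR adjusted p = 0.0086) and did not pass in PPARγ-KO (-0.18 ± 0.212, edgeR adjusted p = 0.509). The difference between the knockout effects did not pass (0.75 ± 0.312, edgeR adjusted p = 0.262). Slc22a21 (OCTN3), a carnitine transporter next to these on chromosome 11, was scarce, at 1.04, 0.566 and 0.8115 CPM in wild-type and 0.7245, 0.684 and 1.005 in PPARγ-KO at 2 months, and at 0.296, 0.583 and 0.209 and then 0.330, 0.154 and 0.3785 at 5 months. It was lower at 5 months in PPARγ-KO (-1.51 ± 0.452, edgeR adjusted p = 0.0185), a call lost without replicate 3 at 2 months or 2 at 5 months, with an adjusted p of up to 0.0781, and in wild-type it did not pass (-1.15 ± 0.490, edgeR adjusted p = 0.0765). Of its 75-base words, 14.2% are shared with Slc22a5, so reads of the pair could be split by the authors' counting.

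Of 13 OAT genes 6 could be tested. Slc22a7 (OAT2), a hepatocyte carrier of nucleotides and organic anions with a sex difference in rodent liver, was at 20.3, 5.81 and 8.88 CPM in wild-type and 40.9, 30.9 and 43.35 in PPARγ-KO at 2 months. At 5 months it was at 10.4, 6.88 and 8.61 and at 16.7, 14.6 and 12.8. PPARγ-KO was higher without overlap at each time. The log2 fold change was 1.73 ± 0.496 at 2 months (edgeR adjusted p = 0.166, called without wild-type replicate 1) and 0.78 ± 0.149 at 5 months (edgeR adjusted p = 0.00281). The call at 5 months did not hold when all 12 libraries shared 1 estimate of the spread (edgeR adjusted p = 0.278). In PPARγ-KO Slc22a7 fell over time by 1.39 on the log2 scale (SE 0.142, p adjusted by edgeR = 8.9e-05), and in wild-type the difference did not pass (-0.44 ± 0.501, edgeR adjusted p = 0.52).

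The genes Slc22a26 to Slc22a30 form a cluster of rodent OATs on chromosome 19, from 7781041 to 8405111. They resemble each other: of the 75-base words in its transcripts, Slc22a28 shares 44.8% with other genes, Slc22a30 26.7%, Slc22a27 16.3%, Slc22a29 15.8% and Slc22a26 2.75%, so their counts are uncertain where reads fall in shared stretches. Slc22a28 and Slc22a30 had log2 fold changes of the same sign between genotypes and over time, though for Slc22a28 only the fall in PPARγ-KO passed. The part of shared reads in this was not tested. The promoters of Slc22a28 and Slc22a30 are printed because they are near copies. They lie at chr19:8131933-8132232, minus strand, and at chr19:8405056-8405355, minus strand, in GRCm38.p6, and 288 of 294 aligned bases (98.0%) were identical. Capitals mark the 6 bases that differ.
Slc22a28: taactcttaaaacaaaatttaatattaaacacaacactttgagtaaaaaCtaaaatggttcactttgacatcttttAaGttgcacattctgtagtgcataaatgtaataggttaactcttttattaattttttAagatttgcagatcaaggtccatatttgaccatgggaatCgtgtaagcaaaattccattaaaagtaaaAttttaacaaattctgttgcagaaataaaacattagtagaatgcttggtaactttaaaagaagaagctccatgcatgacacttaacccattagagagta
Slc22a30: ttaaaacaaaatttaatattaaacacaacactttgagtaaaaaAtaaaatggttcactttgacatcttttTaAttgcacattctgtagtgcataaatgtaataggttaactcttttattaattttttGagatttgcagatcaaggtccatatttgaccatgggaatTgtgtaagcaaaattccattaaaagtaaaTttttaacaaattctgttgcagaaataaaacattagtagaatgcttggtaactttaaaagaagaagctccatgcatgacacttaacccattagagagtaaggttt
The promoter of Slc22a29 matched that of Slc22a30 at 82.9% of 257 aligned bases. That of Slc22a27 aligned with Slc22a30 over only 35 bases. Its alignments with Slc22a29 and Slc22a26 covered 171 and 156 bases, at 81.9% and 78.8% identity. These percentages leave out bases set in gaps or beyond the aligned ends. They therefore cannot show whether the promoter of Slc22a27 is related to the others.

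Slc22a30 was the most abundant of the cluster, at 129, 96.8 and 120.4 CPM in wild-type and 170.4, 157 and 171.5 in PPARγ-KO at 2 months, and at 97.4, 86.0 and 81.1 and then 123, 104 and 114 at 5 months. PPARγ-KO was higher without overlap at each time, by 0.53 ± 0.103 and 0.38 ± 0.0799 on the log2 scale (p adjusted by edgeR = 0.0253 and 0.00528). The call at 2 months was lost without wild-type replicate 2 or 3 or any PPARγ-KO replicate, with an adjusted p of up to 0.109, and that at 5 months was kept under every alternative tried. Slc22a30 was lower at 5 than at 2 months in PPARγ-KO (-0.55 ± 0.0694, edgeR adjusted p = 9.01e-05) and in wild-type (-0.39 ± 0.112, edgeR adjusted p = 0.016), the latter not without replicate 3 at 2 months or 2 or 3 at 5 months, with an adjusted p of up to 0.0758. Its near copy Slc22a28 was at 5.40, 1.54 and 3.30 CPM in wild-type and 9.16, 5.81 and 7.44 in PPARγ-KO at 2 months, and at 3.08, 1.46 and 2.14 and then 4.91, 2.00 and 2.33 at 5 months. PPARγ-KO was above wild-type at 2 months without overlap (log2 fold change 1.13 ± 0.400), with an edgeR adjusted p of 0.186 without the replicate block and 0.0151 with it. In PPARγ-KO Slc22a28 was lower at 5 months (-1.26 ± 0.336, edgeR adjusted p = 0.0172), but not without replicate 1 at 2 months or 3 at 5 months, with an adjusted p of up to 0.063.

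Slc22a27 moved the other way. It was at 8.89, 24.5 and 13.5 CPM in wild-type and 2.90, 8.32 and 3.46 in PPARγ-KO at 2 months, and at 11.3, 15.7 and 16.75 and then 11.5, 21.9 and 15.02 at 5 months. At 2 months every PPARγ-KO library was below every wild-type library, and replicate 2 was the highest of each genotype where it was the lowest for Slco1a1, Slc22a7 and Slc22a28. The log2 fold change was -1.70 ± 0.580, with an edgeR adjusted p of 0.213 without the replicate block and 0.000254 with it. In PPARγ-KO it was higher at 5 than at 2 months (1.75 ± 0.497, edgeR adjusted p = 0.0421), a call lost without replicate 1 or 3 at 2 months or any replicate at 5 months, with an adjusted p of up to 0.129. Slc22a26 was at 0.545, 1.03 and 0.659 CPM in wild-type and 0.207, 0.912 and 0.558 in PPARγ-KO at 2 months, and at 1.303, 1.515 and 0.574 and then 1.23, 1.79 and 2.145 at 5 months. It was higher at 5 months in PPARγ-KO (1.61 ± 0.436, edgeR adjusted p = 0.0109). Slc22a29 ran from 0.558 to 10.5 CPM and passed in no comparison. It was called at 5 months by DESeq2 and without the filter, over time in PPARγ-KO by DESeq2 and in the fit of all 12 libraries, at 2 months and over time in PPARγ-KO without PPARγ-KO replicate 2 at 2 months, and at 5 months without PPARγ-KO replicate 1. At 2 months its PPARγ-KO replicates 1 and 3 were at 0.621 and 0.558 CPM and replicate 2 was at 3.93, near the wild-type range of 3.91 to 4.53.

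**Figure D4:**
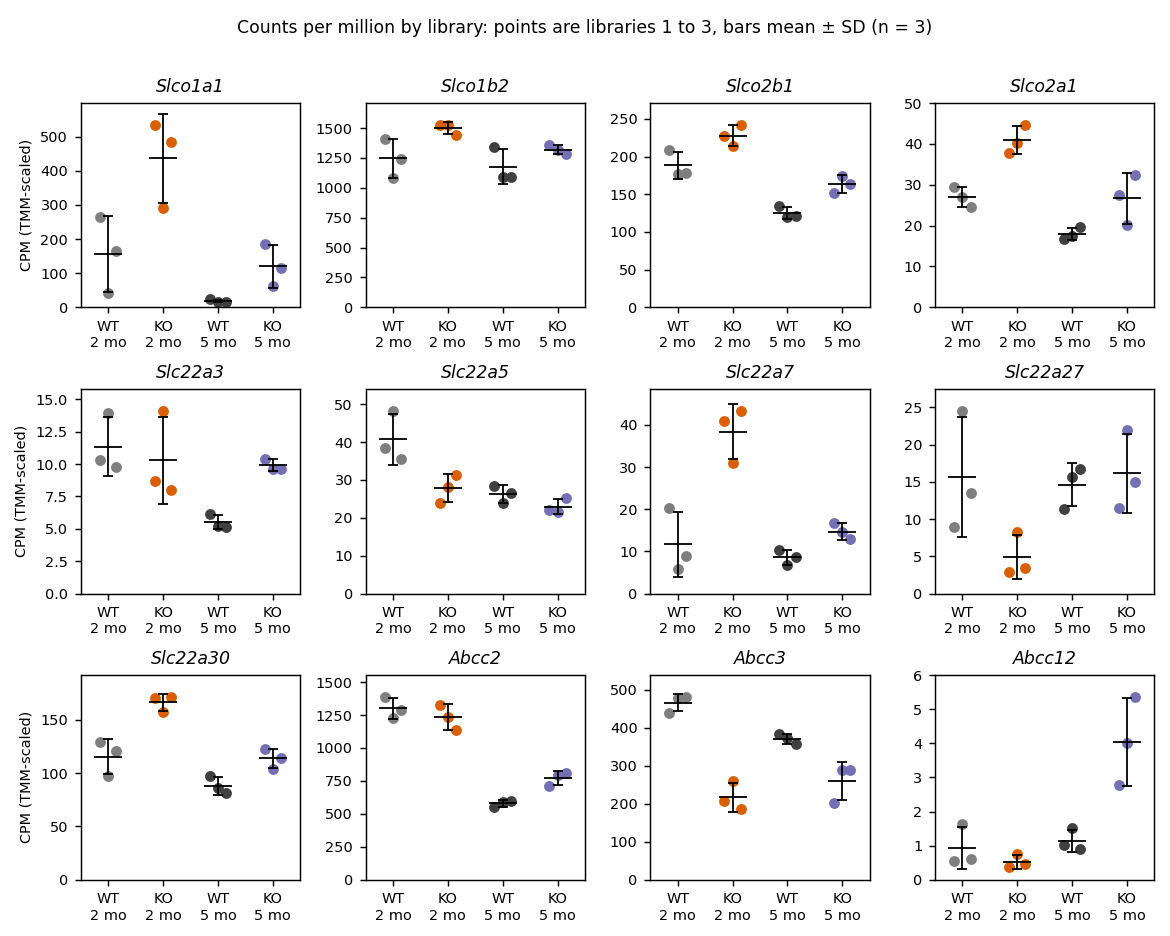
CPM of 12 transporters in each library, on a linear axis from 0, for wild-type (WT) and PPARγ-KO (KO) at 2 and 5 months. Points are replicates 1 to 3 from left to right and bars are the mean and SD of 3 libraries; at 5 months all PPARγ-KO points lie above wild-type for Slco1a1, Slc22a3, Slc22a7, Abcc2 and Abcc12 and below for Abcc3.

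Among the efflux pumps Abcc3 was lower in PPARγ-KO at each time. This basolateral pump, at chr11:94343295-94392997, returns glucuronides and bile acids to the blood. It was at 440.2, 479 and 482 CPM in wild-type and 207, 260.3 and 186 in PPARγ-KO at 2 months, and at 383, 373.5 and 357 and then 201, 290.4 and 289 at 5 months. No PPARγ-KO library reached a wild-type library. The log2 fold change at 2 months was -1.10 ± 0.120 (edgeR adjusted p = 0.00245), which passed under every alternative tried, and at 5 months it was -0.50 ± 0.132 (edgeR adjusted p = 0.0316), which was lost without any of the 3 wild-type replicates, with an adjusted p of up to 0.192. In wild-type Abcc3 was lower at 5 than at 2 months (-0.33 ± 0.0811, edgeR adjusted p = 0.00667), but not without replicate 3 at 5 months, and in PPARγ-KO it did not pass (0.25 ± 0.199, edgeR adjusted p = 0.353) except without replicate 1 at 5 months. The difference between the knockout effects was 0.59 ± 0.195 and did not pass (edgeR adjusted p = 0.164), though it was called without PPARγ-KO replicate 1 at 5 months.

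Abcc2, the canalicular pump for bilirubin glucuronide at chr19:43782192-43840740, did not follow Abcc3. At 2 months it was at 1388, 1227 and 1287 CPM in wild-type and 1330, 1238 and 1138 in PPARγ-KO, which overlapped (log2 fold change -0.08 ± 0.0947, edgeR adjusted p = 0.725). At 5 months it was at 552, 587 and 599 CPM in wild-type and 710.4, 797 and 811 in PPARγ-KO, without overlap (0.43 ± 0.0762, edgeR adjusted p = 0.00177). It fell over time by 1.17 on the log2 scale in wild-type (SE 0.0928, p adjusted by edgeR = 7.41e-06) and by 0.68 in PPARγ-KO (SE 0.0773, edgeR adjusted p = 4.84e-05), and these 3 calls held under every alternative tried. The knockout effect was greater at 5 than at 2 months by 0.49 ± 0.118 (edgeR adjusted p = 0.0474), which was lost without 10 of the 12 libraries in turn, all but wild-type replicate 1 at 2 months and PPARγ-KO replicate 1 at 5 months, and with DESeq2 size factors or the replicate block, with an adjusted p of up to 0.141.

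The ratio of Abcc2 to Abcc3 within a library does not depend on the scaling. It was 3.15, 2.56 and 2.67 in wild-type and 6.44, 4.76 and 6.10 in PPARγ-KO at 2 months, and 1.44, 1.57 and 1.68 and then 3.53, 2.75 and 2.81 at 5 months. PPARγ-KO was above wild-type at each time without overlap, by 1.04 on the log2 scale at 2 months and 0.95 at 5 months. The exact permutation test, two-sided, gave p = 0.1 each time, the smallest that 3 against 3 allows. Groups that do not overlap can give no other value, and the ratio was chosen after values were seen, so the test adds nothing to the values.

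Abcc12 was scarce and was higher in PPARγ-KO at 5 months. This pump, at chr8:86482260-86580686, has few known substrates. It was at 0.545, 1.65 and 0.609 CPM in wild-type and 0.362, 0.741 and 0.4465 in PPARγ-KO at 2 months, and at 1.01, 1.515 and 0.887 and then 2.78, 4.00 and 5.36 at 5 months. The PPARγ-KO libraries at 5 months lay above all the others. The log2 fold change at 5 months was 1.83 ± 0.304 (edgeR adjusted p = 0.00109), PPARγ-KO rose over time by 2.97 ± 0.348 (edgeR adjusted p = 5.82e-05), and both held under every alternative that could test the gene. The floor of 10 counts in every library could not test it over time, since PPARγ-KO replicate 1 at 2 months had 7 counts. At 2 months the difference did not pass (-0.87 ± 0.525, edgeR adjusted p = 0.419). The difference between the knockout effects was 2.70 ± 0.613 (edgeR adjusted p = 0.0375) and was lost without wild-type replicate 2 or PPARγ-KO replicate 1 or 3 at 2 months, or without any wild-type replicate or PPARγ-KO replicate 2 or 3 at 5 months, with an adjusted p of up to 0.122.

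Abcc6, whose loss causes ectopic mineralization and which releases ATP from hepatocytes, was at 266, 218 and 210.3 CPM in wild-type and 268.5, 296 and 282 in PPARγ-KO at 2 months, and at 145, 143 and 148 and then 175, 172 and 164.5 at 5 months. PPARγ-KO was higher without overlap at each time. The difference passed at 5 months (0.24 ± 0.0596, edgeR adjusted p = 0.0141), though not without wild-type replicate 2 or PPARγ-KO replicate 1 (up to 0.0797), and did not pass at 2 months (0.28 ± 0.0986, edgeR adjusted p = 0.155), where it passed without wild-type replicate 1. Abcc6 was lower at 5 months by log2 fold changes of -0.67 ± 0.0973 in wild-type and -0.73 ± 0.0597 in PPARγ-KO (edgeR adjusted p = 0.000289 and 5.6e-06).

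Abcc10, a pump of lipophilic substrates, was at 19.6, 21.4 and 18.01 CPM in wild-type and 21.5, 19.0 and 20.8 in PPARγ-KO at 2 months, and at 5.98, 9.56 and 7.985 and then 11.0, 8.05 and 9.34 at 5 months. Genotypes overlapped at each time, and all 5-month libraries were below all 2-month libraries. The fall was -1.33 ± 0.160 in wild-type and -1.11 ± 0.120 in PPARγ-KO on the log2 scale (p adjusted by edgeR = 9.32e-05 and 3.34e-05). Abcc5, an exporter of cyclic nucleotides, was at 10.4, 15.7 and 16.3 CPM in wild-type and 11.5, 12.2 and 11.5 in PPARγ-KO at 2 months, and at 7.17, 9.965 and 12.6 and then 8.16, 8.82 and 7.70 at 5 months. It was lower at 5 months in PPARγ-KO (-0.51 ± 0.112, edgeR adjusted p = 0.00332), and in wild-type the same difference did not pass (-0.51 ± 0.232, edgeR adjusted p = 0.107) but was called without replicate 1 at 2 months or 3 at 5 months.

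Abcc1, a broadly expressed exporter of glutathione conjugates and leukotriene, was at 4.64, 7.72 and 6.695 CPM in wild-type and 4.24, 3.99 and 5.02 in PPARγ-KO at 2 months, and at 6.16, 8.51 and 8.04 and then 3.21, 5.64 and 4.92 at 5 months. PPARγ-KO was lower without overlap at 5 months (-0.72 ± 0.209, edgeR adjusted p = 0.0307), a call lost without wild-type replicate 2 or 3 or PPARγ-KO replicate 1 or 3, with an adjusted p of up to 0.124. Of the 7 macrophage markers, 6 were called lower in PPARγ-KO at 5 months and none was at 0. Over time in wild-type all 7 were called higher, whereas Abcc1 did not pass (log2 fold change 0.25 ± 0.208, edgeR adjusted p = 0.344). The share of these cells in the values of Abcc1 was not tested. Abcc4, a basolateral pump for cyclic nucleotides and bile acids, ran from 4.32 to 19.8 CPM and passed in no comparison. DESeq2 called it at 2 months and over time in PPARγ-KO, as did the fit without the filter at 2 months and the fit of all 12 libraries over time in PPARγ-KO. At 2 months wild-type was at 4.91, 14.05 and 11.0 CPM and PPARγ-KO at 4.35, 5.30 and 4.32 (-1.11 ± 0.357, edgeR adjusted p = 0.156), with wild-type replicate 1 near PPARγ-KO, and without that replicate it was called. Without PPARγ-KO replicate 1 at 5 months, at 5.76 CPM against 19.8 and 15.1 in the others, it was called higher in PPARγ-KO at 5 months and over time.

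The remaining Slc22a genes have substrates that are poorly known. Slc22a18, an imprinted gene, was at 110.3, 112 and 105 CPM in wild-type and 113, 116 and 112 in PPARγ-KO at 2 months, and at 125.5, 117 and 112 and then 111, 119 and 123 at 5 months, and passed in none of the 5 comparisons. Slc22a23 was at 137, 127 and 136.5 CPM in wild-type and 137, 127 and 133 in PPARγ-KO at 2 months, and at 101, 88.9 and 98.85 and then 90.8, 95.3 and 98.5 at 5 months. Genotypes overlapped, and it was lower at 5 months by -0.47 ± 0.0777 in wild-type and -0.48 ± 0.0594 in PPARγ-KO on the log2 scale (p adjusted by edgeR = 0.000645 and 8.1e-05). Slc22a17, a receptor for lipocalin-bound iron, was at 1.745, 2.11 and 2.03 CPM in wild-type and 1.40, 1.425 and 1.79 in PPARγ-KO at 2 months, and at 0.889, 1.17 and 1.20 and then 0.613, 0.923 and 1.26 at 5 months. It was lower at 5 months in wild-type (-0.85 ± 0.286, edgeR adjusted p = 0.0313), but not without replicate 2 or 3 at 2 months or any replicate at 5 months, with an adjusted p of up to 0.0879. Slc22a15 ran from 18.5 to 24.4 CPM and passed in no comparison.

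Abcc9 encodes a sulfonylurea receptor of potassium channels in muscle and mural cells. It was at 58.4, 54.85 and 58.9 CPM in wild-type and 47.2, 41.7 and 56.9 in PPARγ-KO at 2 months, and at 32.8, 38.35 and 42.3 and then 42.8, 40.7 and 37.7 at 5 months. Wild-type was lower at 5 months (-0.60 ± 0.0946, edgeR adjusted p = 0.000474), and PPARγ-KO did not pass (-0.27 ± 0.107, edgeR adjusted p = 0.0629), though it was called without replicate 2 at 2 months. Markers of stellate cells and fibroblasts, 8 genes, summed to 506 to 581 CPM in wild-type at 2 months and 594 to 679 at 5 months, with 3 called higher and 1, Reln, called lower over time. Their part in the values of Abcc9 was not tested.

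A further 19 transporters did not pass the filter on low counts in any comparison. Slc22a19, Slco6c1, Slco6d1 and Abcc8 had no count in any library. Over all 12 libraries Slco4a1 had 80 counts, Slco1c1 35, Slc22a12 28, Slc22a14 26, Slco5a1 20, Slco1a6 17 and Slc22a2 14, and 8 others had 1 to 5, namely Slco1a5, Slco4c1, Slc22a6, Slc22a8, Slc22a13, Slc22a16, Slc22a20 and Slc22a22. Many of these work in kidney, brain or testis, and the 6 kidney tubule markers summed to 0 to 0.186 CPM a library, with Umod, Slc12a1 and Kap at 0 in all libraries and Miox, Slc34a1 and Aqp2 above 0 in some. The kidney urate transporter Slc22a12 had 2, 17 and 7 counts in PPARγ-KO at 5 months and 0 or 1 in each of the other 9 libraries. Without the filter it was called higher in PPARγ-KO at 5 months and over time in PPARγ-KO. Of the exon bases of Slc22a12, 30.1% lie in Nrxn2 on the opposite strand in the annotation used here, whose coordinates for Slc22a12 differ from those deposited. Slco4a1 was called lower at 5 than at 2 months in PPARγ-KO without the filter, and also without PPARγ-KO replicate 2 at 2 months or 3 at 5 months.

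Other transporters of hepatocytes, 15 of 16 tested, moved in both directions. At 2 months 2 were called higher and 1 lower, and at 5 months 3 higher and 4 lower. Slc15a2 was at 7.91 CPM in PPARγ-KO against 0.276 in wild-type at 2 months (log2 fold change 4.81 ± 0.432, edgeR adjusted p = 0.00106). At 5 months Slc15a2 did not pass (-0.84 ± 0.2825, edgeR adjusted p = 0.0567), and its knockout effect differed between the times (-5.66 ± 0.562, edgeR adjusted p = 0.000854). Abcb1a was lower in PPARγ-KO at each time. Slc10a2 was higher and Abcb4 lower in PPARγ-KO at 5 months. Slc10a1, which takes up conjugated bile acids with sodium, was at 386 CPM in PPARγ-KO against 190 in wild-type at 5 months (log2 fold change 1.04 ± 0.0856, edgeR adjusted p = 6.28e-06). Slc29a1, a nucleoside transporter, was higher in PPARγ-KO at each time (0.77 ± 0.101 and 0.96 ± 0.0629, edgeR adjusted p = 0.00549 and 1.29e-06). The canalicular sterol exporters Abcg5 and Abcg8 were lower in PPARγ-KO at 5 months (-0.82 ± 0.0713 and -0.79 ± 0.0809, edgeR adjusted p = 8.54e-06 and 3.13e-05). Of 4 scaffold genes that hold transporters at the membrane, 1 was called higher at 2 months and 2 at 5 months, the latter Slc9a3r1 (0.27 ± 0.064) and Pdzk1 (0.27 ± 0.0711).

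Of 12 nuclear receptors and factors known to control transporter genes, none was called between genotypes at 2 months, and at 5 months 4 were higher and 1 was lower. Higher were Nr0b2, a bile acid target (log2 fold change 1.117 ± 0.0823), Nr1i3, the receptor CAR (0.62 ± 0.120), Ppara (0.45 ± 0.0756) and Hnf4a (0.28 ± 0.0705), and Nfe2l2, which encodes NRF2, was lower (-0.55 ± 0.0606). The edgeR adjusted p ran from 2.57e-06 for Nr0b2 to 0.0151 for Hnf4a. Over time 4 of the 12 were lower in wild-type and 6 in PPARγ-KO, with 2 higher in PPARγ-KO. Over all genes tested 22.7% were called lower in wild-type, and in PPARγ-KO 22.2% were called lower and 22.7% higher. Among responsive genes, at 2 and 5 months, 1 and 2 of 9 CAR and PXR responsive genes were higher and 1 and 2 lower, 0 and 1 of 9 NRF2 responsive genes were higher with none lower, and 3 of 10 PPARα responsive genes were lower each time. The median log2 fold changes of these lists at 2 months were -0.27 for CAR and PXR, -0.27 for NRF2 and -0.50 for PPARα, and at 5 months -0.09, 0.16 and -0.06. Of 10 genes with male-biased liver expression, 2 were called higher at 2 months, and at 5 months 3 of 9 tested were higher and 1 lower. Susd4 was among them each time (log2 fold changes 1.86 ± 0.191 and 2.38 ± 0.192, edgeR adjusted p = 0.00309 and 5.3e-06). Of 10 female-biased genes 5 could be tested, and 0 at 2 months and 2 at 5 months were higher. Between genotypes 1.78% of all genes tested were called higher and 1.78% lower at 2 months, and 8.90% and 9.51% at 5 months. The lists and marker sets named here are too small to set against these shares. They are described by their counts alone, and their relation to the transporters was not tested.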

How the data were processed

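Total RNA of whole liver was sequenced on a NovaSeq instrument, 3 libraries in each of 4 groups. Raw counts of reads per gene were deposited by the authors, 1 table a library, without normalization. Reads were aligned with STAR according to the study's methods, whereas the submitters' processing notes name HISAT2, both with mm10. The counter, the annotation release and the use of strand are not given in the sources used here.

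Counts were scaled by TMM and tested with edgeR 4.0.16 (quasi-likelihood, R 4.3.3, limma 3.58.1), fitting the 6 libraries of each comparison and all 12 for the difference between knockout effects. Genes passed edgeR's filter on low counts, and the Benjamini-Hochberg adjustment of p covered every gene in the fit, with 0.05 as the threshold. CPM use TMM factors estimated once over all 12 libraries, whereas each fit estimated TMM factors over its own libraries. CPM per kb divide by the deposited gene length. Standard errors (SE) are the absolute log2 fold change divided by the square root of the test's F statistic, since the test itself gives none. The fits were tested on simulated data. Nothing states that mice and libraries were independent beyond their labels. The p-values take the libraries as independent and weigh group differences against the spread between them.

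Alternatives were DESeq2 1.42.0, its size factors, library size alone, no filter, a floor of 10 counts in every library, a block on replicate number, a joint fit of the 12 libraries, the study's rule of unadjusted p under 0.05 with a 1.3-fold change, and each library left out. At 2 months same-numbered libraries deviated together (correlations over 5000 genes 0.22, 0.324 and 0.14 for numbers 1, 2 and 3, from the labels' numbers), so the blocked value is given where it changes a call. Genes named with values in every library are those called in any comparison or among the 8 most abundant per length, with a few added after values were seen, as was the ratio of Abcc2 to Abcc3. The genes and lists were chosen with earlier results of these data known. The values of 1 transporter are not reported here, though it stays in the counts and medians.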

Additional observations from a re-analysis of the deposited data

Results flagged for a closer look

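The knockout effect differed between 5 and 2 months for 2 transporters, by the interaction term of the edgeR fit over all 12 libraries. For Abcc12 the difference was 2.70 on the log2 scale (SE 0.613, p adjusted by edgeR = 0.0375), with all 3 PPARγ-KO libraries at 5 months above every other library. For Abcc2 it was 0.49 (SE 0.118, p adjusted by edgeR = 0.0474), with genotypes overlapping at 2 months and apart at 5 months. Both were lost when single libraries were left out, with an adjusted p of up to 0.122 for Abcc12 and 0.141 for Abcc2.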

How the results depend on the processing

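No called transporter changed sign under the alternatives run. At 2 months, where 3 were called between genotypes, DESeq2 called 7, the fit without a filter 9, the replicate block 6, the fit of all 12 libraries together 6 and the study's rule 9, and leaving out 1 library gave 1 to 11. At 5 months 11 were called, and leaving out 1 library gave 6 to 11. For the difference between knockout effects, with 2 called, DESeq2 size factors gave 1, no filter 4, 10 counts in every library 1 and the study's rule 8, and leaving out 1 library gave 0 to 4. The floor of 10 counts removed Abcc12 from that fit. Over time every alternative stayed within 1.5 times the 14 and 17 called. Without a filter Slco1a1 lost its calls at 5 months and over time in each genotype. The causes were not tested.

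Scaling by library size alone moved the median log2 fold change of all genes by less than 0.1 and turned the calls, higher against lower, from 259 and 260 to 171 and 349 at 2 months, from 1258 and 1344 to 889 and 1894 at 5 months, from 3442 and 3283 to 2745 and 3872 over time in wild-type and from 3287 and 3215 to 2741 and 3725 in PPARγ-KO. For same-numbered libraries the correlations were -0.0779, -0.0603 and -0.179 at 5 months. They were 0.238, 0.185 and 0.0191 over time in wild-type and -0.0376, 0.218 and -0.0199 over time in PPARγ-KO. Over time in wild-type 0.238 and 0.185 lay within the range seen at 2 months, but libraries of different number also reached 0.266. Whether numbers pair the libraries there is not settled. In these 3 comparisons the block called 12, 14 and 19. The block ended the call of Slco1a1 over time in wild-type (edgeR adjusted p = 0.0831). It called Slco1a4 at 5 months (0.000472), Abcc5 over time in wild-type (0.00773), Abcc4 and Slc22a29 over time in PPARγ-KO (0.0199 and 0.0187) and Slc22a27 for the difference between knockout effects (0.0144).

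With all libraries in the fit, other calls also changed. At 2 months DESeq2 added Abcc4, Slc22a5, Slc22a7 and Slc22a28, the fit without a filter added Abcc4, Abcc6, Slc22a5, Slc22a28, Slco1b2 and Slco2b1, and the fit of all 12 libraries added Abcc6, Slc22a5 and Slc22a7. DESeq2 lost Slc22a17 over time in wild-type and Slc22a5 and Slc22a21 over time in PPARγ-KO. No filter lost Slc22a17 over time in wild-type and Slc22a27 over time in PPARγ-KO, and added Abcc5 over time in wild-type, Abcc9 over time in PPARγ-KO and Abcc3 for the difference between knockout effects. The fit of all 12 libraries lost Slc22a7 and Abcc6 at 5 months, Abcc3 over time in wild-type and Slc22a5 and Slco1b2 over time in PPARγ-KO. It added Abcc5 over time in wild-type. Library size alone lost Slco2a1 at 5 months, and added Slc22a5 at 2 months and Abcc9 over time in PPARγ-KO.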
